A study of Mus musculus with 49 samples.

Results

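The cytosolic ribosome of mammals is built from a small and a large subunit, each made of ribosomal RNA and a set of proteins encoded by the Rps and Rpl genes. The ribosomal protein genes of one set are transcribed at high rates in nearly every cell, and many of their messages begin with a short run of pyrimidines through which growth signals acting via mTOR control their translation. In blood, young red cells lose their ribosomes as they mature, and lymphocytes make more ribosomes when they start to grow. The genes described here were taken by name, as those beginning with Rpl or Rps and a number, and Rpsa, Rplp0, Rplp1, Rplp2 and Fau, without the Rps6k kinases. This gave 49 of 5883 named genes on the array, measured by 100 spotted cDNA clones. Of these, 27 belong by name to the large subunit (Rpl), 21 to the small subunit (Rps), and Fau encodes the small subunit protein S30 fused to a ubiquitin-like protein. Each gene is represented by its brightest clone.

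The samples came from female wild-type C57Bl/6J mice, 7 weeks old, which were anaesthetised and received either 20 µl of oleic acid (OA), which damages lung tissue once it reaches the circulation, or physiological serum through the tail vein. Peripheral blood mononuclear cells (PBMC, by the tissue label) were taken 1, 1.5, 3, 4, 18 or 24 h later from 26 OA mice (n = 4, 6, 4, 4, 4 and 4 in order of time) and 11 serum mice (n = 2, 1, 2, 2, 2 and 2). RNA was amplified linearly, labelled with 33P and hybridized to 49 nylon filters, and 12 mice had 2 filters, which were averaged. All mice analysed here were injected, so time since injection and time since anaesthesia cannot be told apart.

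Values are log2 quantile-normalized signals, 1 per mouse, so that a difference of 1 is a doubling relative to the other clones of the same mouse. The median clone signal of an array was between 83 and 364 on the linear scale, and 41.8% to 57.88% of clone spots were well above the empty spots. The labelled tissue matched in part: the T cell receptor genes Cd3d and Cd3e were well above the empty spots on all 49 arrays, and the hemoglobin genes Hba-a1 and Hbb-b1 were at the signal ceiling on all 49. A change called lower or higher passed an adjusted p of 0.05 in limma, fitted on 7739 clones and all mice. In RNA from mixed blood cells, fewer cells of a type and less of a message per cell cannot be told apart. The number of arrays limits the precision.

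Ribosomal protein genes were among the brightest on the array. The median of the 49 gene means was 12.20, against 7.55 for all clones, and 48 of 49 were in the brightest 10% of clones and well above the empty spots on all 49 arrays. Because 26 of the 49 genes have several clones and only the brightest was taken, part of this gap comes from that choice. Rps16, a small subunit protein, was the brightest at 13.82 ± 0.52 (SD over 37 mice), and it reached the signal ceiling on 3 arrays. Among the next were Rps3a at 13.26 ± 0.70, Rplp1 at 13.04 ± 0.38 and Rpl7 at 13.00 ± 0.64. The differences between these 3 were smaller than or close to the spread over mice, and signals of different clones also depend on their length and labelling, so the order is only that of these spots. The dimmest was Rps27l, a p53-inducible paralog of Rps27, at 7.16 ± 0.67 and well above the empty spots on 6 of 49 arrays. Above it came Rpl22l1, a paralog of Rpl22, at 9.88 ± 0.93, and Rpl36 at 10.09 ± 0.50. Rplp0, the stalk base protein, is named Arbp in the files and was not taken by name. Its brightest clone averaged 13.31, and its late minus early change in OA mice was -0.50 (SE 0.30, limma adjusted p = 0.284).

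The promoters of 38 of the 49 genes were found in the RefSeq table for GRCm38.p6, which gives 250 bases before and 50 after each annotated start of transcription. An annotated start at C, followed without a break by C or T to a length of at least 5, was present in 8 of these 38 genes (21.1%), against 3.01% of 27025 genes in the table. The motif CTTCCGG, or its complement CCGGAAG, the core of sites bound by ETS family factors, was present in 17 of 38 (44.7%), against 9.93% of all genes. TATAAA or its complement was present in 2 of 38 (5.26%), against 15.7%. The windows below run from 50 bases before the start to 20 bases from it onward. They are shown because Fau, Rpl28 and Rps16 were lower in late OA mice, Rps7 and Rps10 at 24 h, and Rpl14 varied most between mice, and capitals mark the pyrimidine run at the start or the CTTCCGG motif on either strand.
Fau, chr19:6057897-6057966, plus strand: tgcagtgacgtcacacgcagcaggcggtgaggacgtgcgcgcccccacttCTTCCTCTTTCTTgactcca
Rpl28, chr7:4792915-4792984, plus strand: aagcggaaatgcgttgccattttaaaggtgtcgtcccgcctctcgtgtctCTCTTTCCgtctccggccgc
Rpl14, chr9:120571467-120571536, plus strand: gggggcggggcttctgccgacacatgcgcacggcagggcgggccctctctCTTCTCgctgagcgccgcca
Rps10, chr17:27635225-27635294, minus strand: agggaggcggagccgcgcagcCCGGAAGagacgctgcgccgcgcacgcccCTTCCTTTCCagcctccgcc
Rps7, chr12:28635934-28636003, minus strand: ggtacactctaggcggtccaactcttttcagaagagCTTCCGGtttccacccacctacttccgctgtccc
Rps16, chr7:28350639-28350708, plus strand: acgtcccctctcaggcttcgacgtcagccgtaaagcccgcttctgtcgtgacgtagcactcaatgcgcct
The run was 13 bases long in Fau, 10 in Rps10, 8 in Rpl28 and 6 in Rpl14, and Rps16 had no such run at its start and no CTTCCGG in its table entry. The 8 genes with the run had a median OA 24 h minus early change of -0.83 (range -1.22 to 0.24), and the 30 without it -0.81 (range -1.19 to -0.19). The run was scored only at the annotated start, so a gene whose start is annotated a few bases off counts as without it. These 2 medians therefore do not separate messages with and without a pyrimidine start.

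Mice of the same treatment and time could differ from each other in the pattern of these genes. On the first principal component over all 7739 clones, which held 36.2% of the variation between mice, 7 mice lay apart from the other 30. They were OA 3 h mouse 7, OA 4 h mice 2 and 3, OA 18 h mouse 2, serum 4 h mice 1 and 4, and serum 18 h mouse 1. All 9 arrays of these mice scored at or below -0.242, and all arrays of the other mice at or above -0.0568. On these 9 arrays 41.8% to 49.22% of clone spots were well above the empty spots. On the other arrays it was 42.66% to 57.88%, with most of them above all 9. The part of this difference between arrays in the grouping was not tested. The 7 include both serum mice of 4 h and 2 of the 4 OA mice of 4 h, but no mouse of 1, 1.5 or 24 h. The remaining OA 4 h mice, 5 and 6, scored -0.044 and -0.039, the lowest of the 30, so the axis was not independent of time. This grouping was made from the data, so the values below describe these mice and are not tested.

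Rpl14, a large subunit protein, was low in all of these mice. It was at 8.89 in OA 3 h mouse 7, 8.48 and 9.24 in OA 4 h mice 2 and 3, 8.15 in OA 18 h mouse 2, 7.86 and 8.49 in the serum 4 h mice and 8.67 in serum 18 h mouse 1. In the other 30 mice it was between 10.06 and 13.54 with a median of 12.70, and the 2 lowest of these, at 10.06 and 10.54, were the other OA 4 h mice. Rpl18, Rps2 and Rps3 also had all 7 values below those of the other mice. Rps3, which lines the entry of the messenger RNA channel, was between 8.61 and 11.39 in the 7 and between 11.94 and 14.35 in the 30. The 7 values of Rpsa, the laminin receptor precursor and a small subunit protein, were between 9.46 and 10.42 and met the lowest of the others at 10.37.

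Other genes of the same ribosome went the opposite way in the same mice. Rpl37a was between 11.57 and 12.86 in the 7 and between 9.45 and 11.18 in the 30. Rpl13, Rpl38 and Rps27l likewise had all 7 values above all others. Rps27l was well above the empty spots on only 6 of 49 arrays, so most of its values lie near the floor. Rpl38, whose loss alters skeletal patterning in mice, was between 11.85 and 14.05 in the 7 and between 9.54 and 11.65 in the 30. In all, 4 of 49 genes (8.16%) were lower without overlap and 5 (10.2%) higher without overlap, against 4.32% and 3.14% of all clones. Rps16 and Rpl28 overlapped fully between the 7 and the 30, with Rps16 between 12.82 and 14.12 in the 7 and between 12.56 and 14.41 in the 30. The summed signal of 17 erythroid markers, without the 2 hemoglobin genes at the ceiling, weighs its brightest genes, Alas2 and Bpgm, most. It was between 9080 and 26356 in the 7 mice, inside the range of the other mice (5217 to 57213). The neutrophil and NK cell sums of the 7 also lay inside those of the other mice. The 7 reached below the others for T cells (lowest 4779 against 5939) and above them for monocytes (highest 8316 against 7397), B cells (25983 against 23991) and platelets (52247 against 46853). The part of these cell types in the pattern was not tested.

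**Figure D1:**
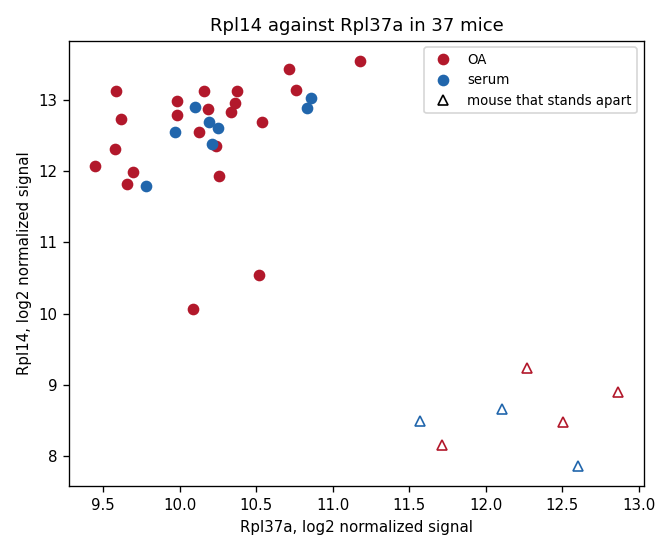
Log2 normalized signal of Rpl14 (vertical axis) against Rpl37a (horizontal axis), 1 point per mouse, red for OA and blue for serum, with open triangles for the 7 mice that stand apart. The 7 lie between 7.86 and 9.24 for Rpl14 and above 11.5 for Rpl37a, and 2 OA 4 h mice lie between the groups on the Rpl14 axis alone.

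Across all mice the first axis of the 49 genes held 59.9% of their variation and followed the first axis of all clones (Pearson's r 0.99 over 37 mice, a description). The second axis held 20.1%, and 47 of 49 genes had the same sign on it, all but Rps21 and Rplp1. The median correlation of 2 of these genes over mice was 0.29 across 1176 pairs, and 0.58 over the 30 mice without the 7, where 93.6% of pairs were positive. All these values share arrays and normalization, and no p is given.

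The comparison of late (18 and 24 h) with early (1 and 1.5 h) blood asks how the cells changed over the day after OA. Ribosomal protein genes were lower late: 46 of 49 changes were negative, with a median of -0.48, against -0.01 for all clones, of which 51.7% were negative. Past the threshold, 4 of 49 fell (8.16%), against 3.88% of all clones called lower, and 0 rose, against 4.35% of clones called higher. Among the 4 were Rps16, Fau and Rpl28. Without the 7 mice, of which 1 is a late and 0 an early OA mouse, 24 of 49 fell (background 8.53%), the earlier 4 among them, with a median of -0.49. These mice were picked from the same data on an axis that the 49 genes follow, so this count is a description. Without the 1.5 h mice or without the 24 h mice 0 of 49 passed. Over all clones 337 were called higher and 300 lower, against 560 and 292 with arrays scaled to their median and 289 and 355 with the authors' table.

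At 24 h 47 of 49 changes were negative. The median change at 24 h was -0.81, against -0.05 for all clones, and 14 of 49 fell (28.6%), against 6.18% of clones called lower and 10.3% called higher. Among them were Rps16, Rps3a, Rps4x, Rps7, Rps10, Rps18 and Fau of the small subunit, and Rpl7, Rpl8, Rpl10a, Rpl11 and Rpl28 of the large subunit. None of the 7 mice is in either group, so leaving them out kept every change as it was and altered only the shared estimate of the spread. In that fit 35 of 49 passed, all 14 among them (background 12.5%). The mice were picked from these same data, so the rise from 14 to 35 is a description and no further evidence of a fall. At 18 h the median change was -0.13 and 0 of 49 passed (background 0.0129%), with 0 of 49 also without the 7 mice (background 0.194%). The 24 h and 18 h changes share the early mice, and the difference between them was not tested. The count at 24 h was 2 without OA 24 h mouse 2, 4 without mouse 6, 6 without mouse 3 and 1 without the 1.5 h mice. Over all clones 796 were called higher and 478 lower, against 1053 and 384 with arrays scaled to their median, where 8 of the 49 fell, and 678 and 578 with the authors' table.

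In single mice, the median deviation of the 49 genes from their own means was -0.82, -0.60, -0.13 and -0.69 in the OA 24 h mice, with 46, 45, 34 and 46 of 49 genes below their mean. In the OA 1 h mice it was -0.20, -0.11, 0.45 and 0.35, and in the OA 1.5 h mice between 0.03 and 0.49. OA 24 h mouse 5 thus lay inside the range of the 1 h mice, and the other OA 24 h mice lay below every other mouse of the study. In serum mice it was -0.57 and -0.16 at 24 h, against 0.30 and 0.15 at 1 h and 0.25 at 1.5 h. The median clone signal was 196 on the array of OA 24 h mouse 5 and 83 to 132 on the other OA 24 h arrays. On the early OA arrays it was 141 to 364. In the serum 24 h mice it was 191 and 195, in the same order as above, against 159 to 344 in early serum mice. The part of array brightness in the medians of single mice was not tested.

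**Figure D2:**
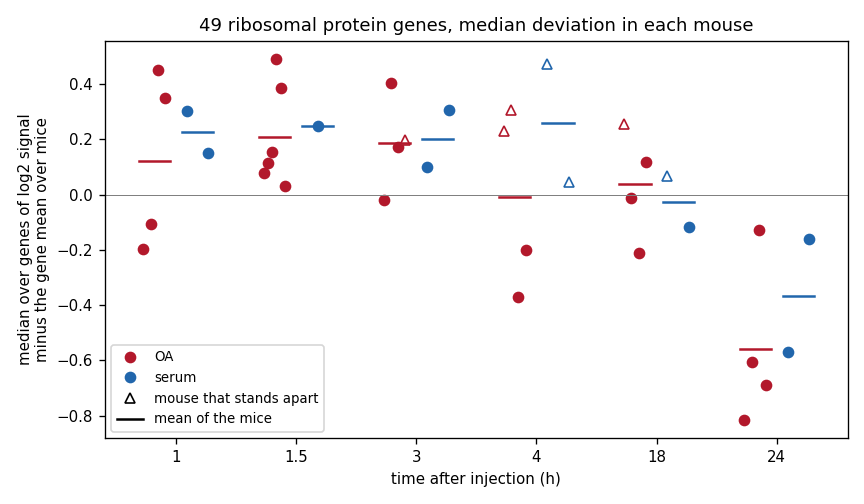
Median over the 49 genes of each gene's log2 signal minus its mean over mice (vertical axis), by time after injection in hours, 1 point per mouse, OA in red and serum in blue, with lines at the group means and open triangles for the 7 mice that stand apart. The 24 h mice of both treatments are all below 0, and OA 24 h mouse 5 is the highest of them at -0.13.

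Rps16 had the smallest adjusted p of the 49 genes in both comparisons. It was at 12.56, 13.19, 13.21 and 12.95 in OA 24 h mice and at 13.58, 13.24, 13.56 and 14.15 in OA 18 h mice, against a lowest value of 13.63, a median of 14.32 and a highest of 14.41 in the 10 early OA mice. All OA 24 h mice lay below all early OA mice. Late OA mice averaged 13.31 ± 0.47 (SD, n = 8) and early OA mice 14.19 ± 0.26 (n = 10), and with both times of a period weighted equally, as in all late and early changes here, the change was -0.86 (SE 0.14, limma adjusted p = 0.00155), and the 24 h change was -1.19 (SE 0.18, adjusted p = 0.000134). The call held in each fit that left out 1 mouse. Its other clones had correlations with it over mice of 0.94 and 0.89 and 24 h changes of -1.28 and -1.07, and the early values near the ceiling of the scanner bound how large the change can appear.

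Fau was at 10.66, 11.15, 11.82 and 10.87 in OA 24 h mice and at 10.84, 11.61, 11.73 and 12.35 in OA 18 h mice, against a lowest value of 11.29, a median of 12.28 and a highest of 13.35 in early OA mice. Of the OA 24 h mice only mouse 5 overlapped the early range, while 3 of the 4 OA 18 h mice did. The late change was -0.97 (SE 0.27, limma adjusted p = 0.0274) and the 24 h change -1.22 (SE 0.34, adjusted p = 0.0167). The late call was lost without OA 1 h mouse 5 (adjusted p = 0.094) and in 4 other fits that left out 1 mouse. Fau was also low in OA 3 h mouse 7 (10.77) and in the OA 4 h mice (10.82 to 11.57).

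Rpl28, a large subunit protein, was at 11.11, 11.28, 11.58 and 10.97 in OA 24 h mice and at 11.08, 11.74, 11.20 and 11.76 in OA 18 h mice, against a lowest value of 11.28, a median of 11.91 and a highest of 12.42 in early OA mice. OA 24 h mouse 5 lay inside the early range, and OA 24 h mouse 3 was level with its lowest mouse. The late change was -0.54 (SE 0.15, limma adjusted p = 0.0214) and the 24 h change -0.65 (SE 0.18, adjusted p = 0.0161). The late call was lost in 4 fits that left out 1 mouse (adjusted p up to 0.0643).

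**Figure D3:**
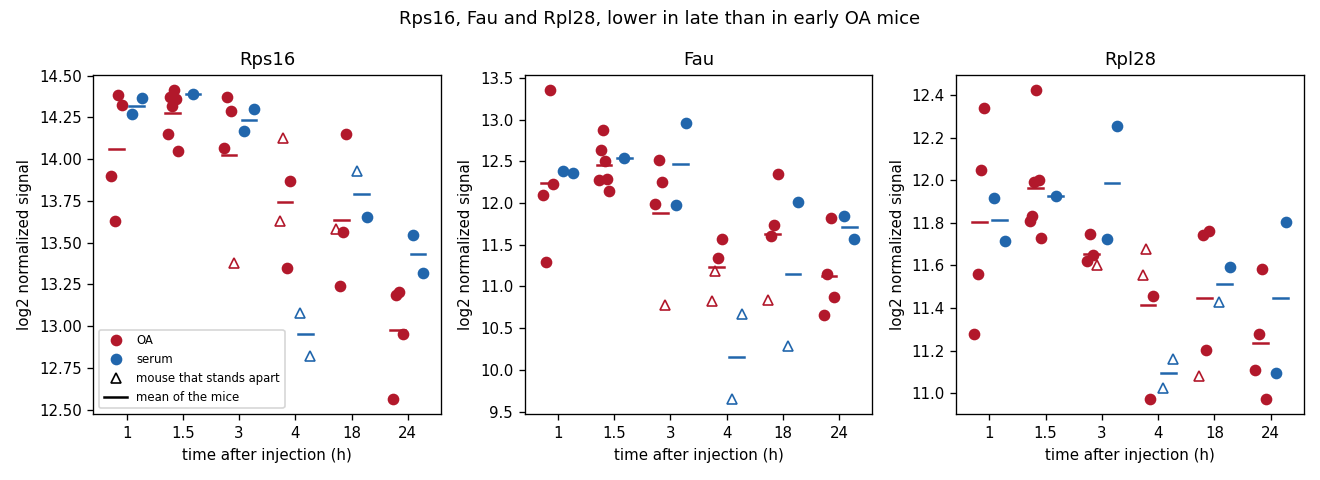
Log2 normalized signal of Rps16, Fau and Rpl28 (vertical axes, 1 panel per gene, scales differ) by time after injection in hours, 1 point per mouse, OA in red left of serum in blue, lines at the group means and open triangles for the 7 mice that stand apart. All 4 OA 24 h values of Rps16, 12.56 to 13.21, lie below the lowest early OA value of 13.63.

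The largest negative late changes that did not pass belonged to the genes that varied with the 7 mice. Rpl14 was at 11.98, 12.07, 11.92 and 11.81 in OA 24 h mice and at 8.15, 12.79, 12.30 and 13.11 in OA 18 h mice, against 12.34 to 13.54 with a median of 12.97 in early OA mice. Its 24 h values were close together and below every early value. Its late change was -1.18 (SE 0.57, limma adjusted p = 0.183), and -0.61 without the 7 mice. Rps3 was at 12.53, 11.94, 13.41 and 12.09 in OA 24 h mice and at 11.02, 12.86, 13.01 and 13.71 in OA 18 h mice, against 12.50 to 14.35 with a median of 13.67 in early OA mice, and its late change was -0.97 (SE 0.48, adjusted p = 0.198). Rps19, which the small subunit needs to mature and which is mutated in human Diamond-Blackfan anaemia, changed by -0.88 (SE 0.38, adjusted p = 0.133). Without the 7 mice the late changes were -0.70 for Rps3 and -0.80 for Rps19. The 7 were picked on the first axis of all clones, which Rpl14, Rps3 and Rps19 follow over mice (r 0.95, 0.92 and 0.84). No p is given for the fit without them.

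Rpl5 and Rpl11, which bind the 5S ribosomal RNA and can hold Mdm2, had 24 h changes of -0.58 (SE 0.28, limma adjusted p = 0.167) and -0.81 (SE 0.26, adjusted p = 0.0338). Rps4x, the X-linked copy of S4, changed by -1.09 at 24 h (SE 0.30, adjusted p = 0.0167), and Rps7 by -1.12 (SE 0.31, adjusted p = 0.0147). Rps10, mutated in some human cases of the same anaemia, changed by -0.81 (SE 0.22, adjusted p = 0.0157). Rpl3, next to the peptidyl transferase centre, Rpl4, Rpl6 and Rps9 had 24 h changes of -0.54, -0.42, -0.23 and -0.21, none of which passed. Other clones of Rpl3, at -0.71 (limma adjusted p = 0.0181) and -0.43 (adjusted p = 0.0405), and of Rpl4, at -0.68 (adjusted p = 0.033), were called lower. The remaining Rpl3 clones, at -0.45 (limma adjusted p = 0.178) and -0.41 (adjusted p = 0.634), did not pass. Nor did the remaining Rpl4 clones, at -0.20 (adjusted p = 0.79) and -0.47 (adjusted p = 0.176). The paralogs Rpl22l1 and Rpl7l1 changed by -0.86 (SE 0.46, adjusted p = 0.211) and -0.44 (SE 0.35, adjusted p = 0.435).

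**Figure D4:**
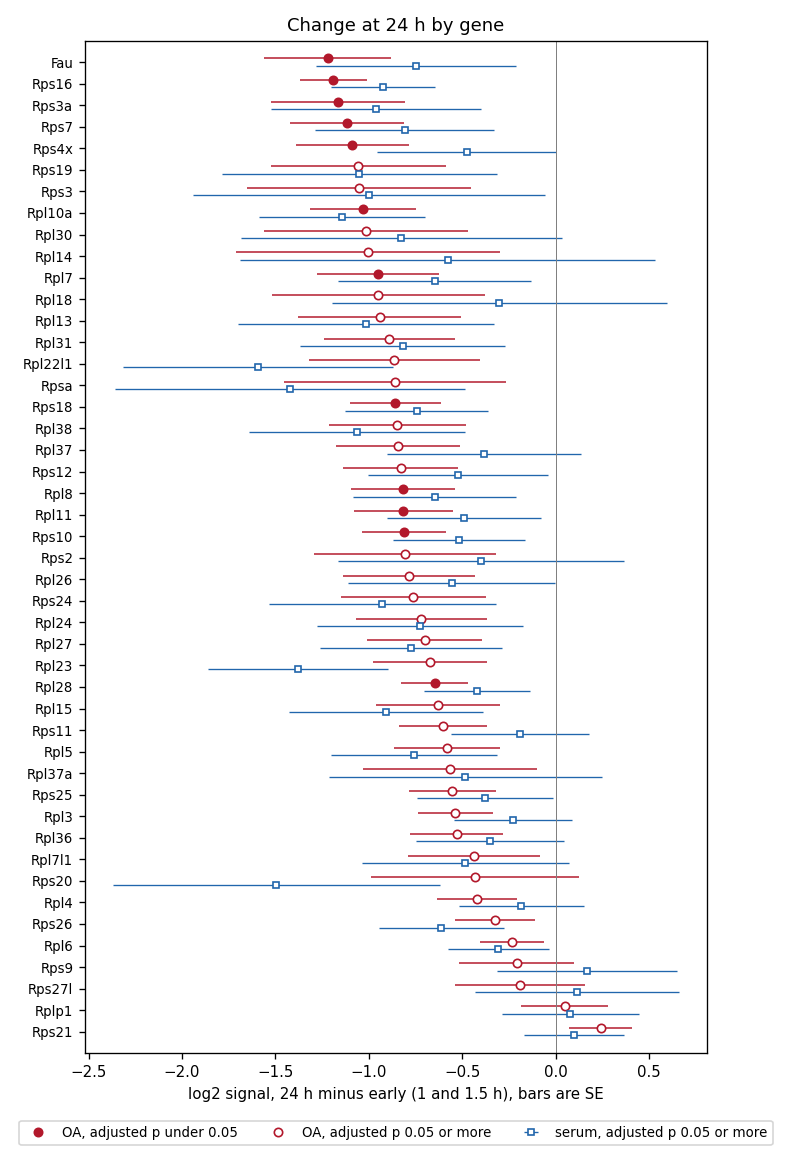
Log2 change at 24 h relative to early mice (horizontal axis, bars are SE) for 46 of the 49 genes, ordered by the OA change, with OA in red above serum in blue and filled points for an adjusted p under 0.05. The OA changes run from -1.22 for Fau to 0.24 for Rps21, 12 are filled, and no serum change is.

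Rps21, Rplp1 and Rps27l had late changes above 0, and none passed. Rps21, a small subunit protein, was at 11.33, 11.33, 11.19 and 11.78 in OA 24 h mice and at 11.40, 11.64, 11.16 and 10.91 in OA 18 h mice, against 10.84 to 11.62 with a median of 11.22 in early OA mice, a late change of 0.18 (SE 0.14, limma adjusted p = 0.427). Rplp1, an acidic protein of the stalk that receives the elongation factors, was at 13.11, 13.08, 12.92 and 13.07 in OA 24 h mice and at 13.75, 13.29, 12.82 and 13.06 in OA 18 h mice, against 12.62 to 13.32 with a median of 13.05 in early OA mice, a late change of 0.14 (SE 0.19, adjusted p = 0.677). Both ranges overlapped.

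For Rps21 and Rplp1 the clones of a gene disagreed. The second Rps21 clone followed the first with r 0.43 over mice, and its 24 h change was -1.10 (SE 0.33, limma adjusted p = 0.0232), against 0.24 for the brightest. The other Rplp1 clones, with r 0.49 and 0.41, changed by -0.70 (SE 0.37) and -1.03 (SE 0.37). With the mean over clones of a gene the late change was -0.18 for Rps21 and -0.23 for Rplp1. Rps27l was at 6.67 to 6.84 in OA 24 h mice and 6.68 to 7.11 in early OA mice, not well above the empty spots on most arrays, so no fold is given.

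The 51 further clones of 26 genes gave the same measure on separate spots of the same arrays. Their correlation with the brightest clone over mice had a median of 0.83 and ran from 0.0045 to 0.97, and 10 were under 0.5. At 24 h 50 of 51 changed below 0, with a median of -0.70, 17 were called lower and 0 higher, against 56.0% of all clones negative, 6.18% called lower and 10.3% called higher. A cDNA clone can also bind messages of close copies, and ribosomal protein genes have many processed copies in the mouse genome, which the spots cannot separate.

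**Figure D5:**
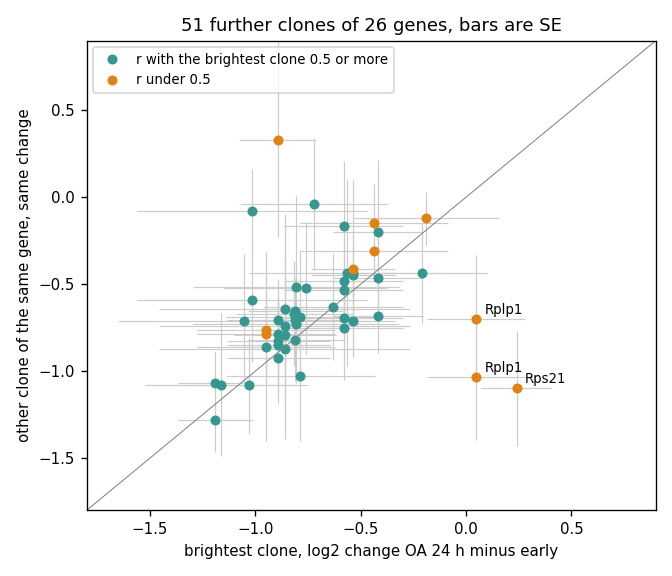
Log2 change, OA 24 h minus early, of the 51 further clones (vertical axis) against the brightest clone of the same gene (horizontal axis), bars are SE and the line marks equality. Orange clones followed the brightest with r under 0.5, among them the Rps21 clone at -1.10 and the Rplp1 clones at -0.70 and -1.03.

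Serum mice show the course without OA. In them 45 of 49 late changes were negative, with a median of -0.39, and 0 passed (background 0.0129%), while 7 were lower at an unadjusted p under 0.05, against 4.2% of all clones. At 24 h 45 of 49 were negative, with a median of -0.65, against -0.81 in OA mice, and 0 of 49 passed (background 0%), with 6 lower at an unadjusted p under 0.05, against 3.48% of all clones. Without the 7 mice 1 of 49 passed at 24 h (background 0.0129%) and 0 for late against early (background 0%). Rps16 was at 13.54 and 13.32 in serum 24 h mice, against 14.27, 14.37 and 14.39 in early serum mice, a change of -0.92 (SE 0.28, limma adjusted p = 0.417). These values did not overlap, although the adjusted p missed the threshold with 2 mice against 3. In 38 of 49 genes both serum 24 h mice lay below all 3 early serum mice, against 17.2% of all clones, and in 7 of 49 all OA 24 h mice lay below all 10 early OA mice, against 3.17% of clones.

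The difference between the late minus early changes of OA and serum mice had a median of 0.02 over the 49 genes. None passed (0 of 49, background 0%, with and without the 7 mice), and 117 of 7739 clones had an unadjusted p under 0.05. For Rps16 the late changes were -0.86 in OA mice (SE 0.14) and -0.74 in serum mice (SE 0.24). A p that misses the threshold with 4 late and 3 early serum mice does not show that the changes were equal.

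OA and serum mice compared at the same times did not differ past the threshold for any ribosomal protein gene. Averaged over the 6 times, the changes were between -0.31 and 0.42 with a median of -0.05. Of the 49 genes 0 passed (background 0%, with and without the 7 mice). At an unadjusted p under 0.05 there were 0 of 49, near the share of all clones, 2.22% lower and 1.21% higher. Rps16 differed by -0.07 (SE 0.11) and Fau by 0.03 (SE 0.21). At the single times 0 of 49 passed (backgrounds 0% to 0.0388%), and the medians were -0.12, -0.01, 0.03, -0.06, -0.02 and -0.17 in order of time. At 4 h 8 genes (of all clones 7.49%) were lower and 11 (of all clones 5.50%) higher in OA mice at an unadjusted p under 0.05, among them Rpl31 at -1.39 (SE 0.51) and Rps3 at 2.07 (SE 0.87). Both serum 4 h mice are among the 7, so this time has no serum mouse without them. Left out alone, serum 4 h mouse 4 raised the count over the 6 times to 15 and OA 4 h mouse 2 to 1.

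In the middle hours (3 and 4 h) 25 of 49 changes relative to early OA mice were negative and 24 positive over all mice, and without the 7 mice 39 were negative and 10 positive. Past the threshold 3 of 49 fell (6.12%), against 6.19% of all clones called lower, and the median change was -0.04. They were Rpl14 at -2.20 (SE 0.57, limma adjusted p = 0.0189), Rps2 at -1.47 (SE 0.39, adjusted p = 0.0212) and Rpl18 at -1.44 (SE 0.46, adjusted p = 0.0471), all genes that were low in the 7 mice, of which 3 are middle OA mice. Without the 7 mice 3 of 49 passed as well (background 2.11%), and the median was -0.24. The count was 0 without OA 3 h mouse 7 and 1 without OA 4 h mouse 2 or mouse 3. In serum mice 0 of 49 passed in the middle hours (background 0.0388%, with and without the 7 mice), and the count was 5 without serum 4 h mouse 4.

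Other genes of translation had median changes closer to that of all clones, and their counts stand beside 6.18% of all clones called lower and 10.3% called higher. Among 18 elongation factors and other messages with a pyrimidine start, the median OA 24 h change was -0.01, and 2 fell. These were Rack1, a scaffold protein on the small subunit, at -0.85 (SE 0.19, limma adjusted p = 0.00412), and Eef1b2, an exchange factor for eEF1A, at -0.82 (SE 0.25, adjusted p = 0.0258). Eef1a1 itself changed by 0.59 and Pabpc1, the poly(A)-binding protein, by 1.25, and neither passed. Of 47 mitochondrial ribosomal protein genes, 3 fell and 3 rose with a median of -0.09, so the share that fell was near that of all clones. Mrpl45 rose by 1.22 (SE 0.29, adjusted p = 0.00628) and Mrpl30 changed by -0.86 (SE 0.28, adjusted p = 0.0372). Of 27 ribosome biogenesis genes, 3 fell and 1 rose, with a median of -0.03. Riok1, a kinase in small subunit maturation, fell by 1.60 (SE 0.34, adjusted p = 0.0023). Of 17 genes of growth signalling to the ribosome, 1 fell and 3 rose. Myc, a transcription factor that drives ribosome production, rose by 1.64 (SE 0.48, adjusted p = 0.0208), and Rps6kb1, the S6 kinase, by 1.11 (SE 0.33, adjusted p = 0.0218).

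Erythroid and neutrophil markers changed at 24 h along with the ribosomal protein genes. Of 19 erythroid genes 10 rose and 0 fell in OA mice at 24 h, with a median of 0.71, and the summed signal of the 17 without Hba-a1 and Hbb-b1 was 44430 to 57213 in OA 24 h mice, against 5217 to 35955 in early OA mice. In serum mice it was 43005 to 43462 at 24 h, against 9650 to 35021 early. Alas2 and Bpgm weigh most in this sum, with mean log2 signals of 13.07 and 12.91, and the next of the 17, Gata1, was at 10.12. Rhag was well above the empty spots on 0 of 49 arrays. Slc4a1, the anion exchanger of the red cell membrane, changed by 3.65 (SE 0.82, limma adjusted p = 0.00379). Of 11 neutrophil genes 5 fell and 0 rose, with a median of -0.88 and a summed signal of 3276 to 4769 in OA 24 h mice, against 6373 to 41363 in early OA mice. In serum mice it was 3006 and 22935 at 24 h, against 12974 to 16838 early. Of 19 T cell genes 4 fell and 2 rose, and of 12 B cell genes 1 fell and 1 rose. Of 12 monocyte genes 0 fell and 1 rose, of 6 platelet genes 1 fell and 0 rose, and of 8 NK cell genes 0 passed. Over all clones 6.18% were called lower and 10.3% higher. The part of these cell types in the change of the ribosomal protein genes was not tested.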

How the data were processed

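Blood RNA of 37 mice was measured on 49 filters. The tissue label says PBMC, while the extraction text names lung and a blood RNA kit. Per the file headers, the authors deposited a linear intensity for each spot (15 to a ceiling of 21815) without a background column, and a table of log2 values quantile normalized by the authors, which was used here as an alternative. The image analysis is not given in the sources used here.

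Intensities of 7771 clone spots were log2 transformed, quantile normalized and averaged over spots of a clone (7739 clones) and arrays of a mouse. A clone was well above the empty spots when its signal exceeded their median by 2.6 robust SDs. limma 3.58.1 in R 4.3.3 was fitted to all mice with a mean per group, and p-values were Benjamini-Hochberg adjusted over clones. Nothing says that mouse numbers pair mice across groups. The code was tested on simulated data.

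Members, gene lists and alternatives were chosen with earlier results of these data known. Named genes are those past the threshold in late against early, OA against serum or their difference, the 5 largest changes each way, the brightest and dimmest, and stalk proteins and paralogs. The genes named for 24 h, the middle hours and the 7 mice were chosen after their values were seen, as was the alternative without these mice. Gene names are those of the files, and a few genes are not reported here. Alternatives varied scaling, background, filters, clones, arrays, covariates, weights, blocks and the mice and times used.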

Additional observations from a re-analysis of the deposited data

Results flagged for a closer look

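Within OA groups, 54 sets of values (8 genes and the median of the 49, in 6 groups) were checked for a mouse far from the others by Dixon's ratio, and 5 had one. Chance flags about 1 in 20 independent sets. These sets share mice and their genes were chosen by their late changes, so that rate is no yardstick for the 5. Rpl14 was at 8.89 in OA 3 h mouse 7 (the others 12.83 to 13.13) and at 8.15 in OA 18 h mouse 2 (the others 12.30 to 13.11). Rps27l was at 8.30 in OA 3 h mouse 7 (the others 6.67 to 6.92) and at 8.24 in OA 18 h mouse 2 (the others 6.74 to 6.97). It was well above the empty spots on only 6 of 49 arrays, so most of its values lie near the floor. Rplp1 was at 13.96 in OA 3 h mouse 7 (the others 12.85 to 13.04). These 5 values come from 2 of the 7 mice that stand apart over all clones.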

How the results depend on the processing

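Counts are of the 49 genes called lower. The number of all clones called lower also moved between fits. For OA late against early it was 300 in the report, 355 with the authors' table and 660 without the 7 mice. For OA 24 h it was 478 in the report, 384 with median scaling and 970 without the 7 mice. For the other alternatives and the fits without 1 mouse it is not given, so their counts are not read as results about these genes. For OA late against early (4 in the report) the count was 7 with the authors' table, 2 without clones at the ceiling, 10 with mouse as a random block over all arrays, 1 with array brightness as a covariate, 24 with weighted mice, 2 with a trended robust variance, 24 without the 7 mice that stand apart, 8 with only the compared groups in the fit, 0 without 1.5 h, 12 without 18 h and 0 without 24 h. For OA 24 h (14) it was 8 with median scaling, 39 with weights, 35 without the 7 mice, 32 with only the compared groups and 1 without 1.5 h. For OA in the middle hours (3) it was 7 with the random block, 0 with the covariate, 5 with weights, 5 without array 38, 0 without 1 h, without 1.5 h or without 4 h, and 7 without 3 h. For serum in the middle hours (0) it was 1 with weights, 2 with only the compared groups and 19 without 3 h. With mouse number as a replicate block the counts were 9 late, 16 at 24 h and 4 in the middle hours. Same-numbered mice had a median correlation of -0.0061 over 67 pairs, and 13 of 36 mice were closest to their own number, so the numbers were not taken as pairs.

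Leaving out 1 mouse at a time gave 1 to 9 for OA late, 2 to 15 for OA 24 h, 0 to 5 for OA and for serum in the middle hours, and 0 to 15 over the 6 times for OA minus serum. The OA late count was 1 without OA 24 h mouse 6 or without mouse 5 or 6 of OA 1 h, 2 without mouse 5 of OA 18 h or mouse 2 of OA 24 h, 7 without OA 1 h mouse 2, 8 without OA 1.5 h mouse 8 or OA 24 h mouse 5, and 9 without OA 1 h mouse 3. The middle count was 5 without mouse 3 of OA 3 h, mouse 5 of OA 4 h, or mouse 2 or 3 of OA 1 h.

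Late changes that turned their sign, none of them past the threshold in the report, were as follows. With the brightness covariate they were 0.47 for Rpl7l1, 0.081 for Rps19, -0.015 for Rps21, -0.61 for Rps27l, 0.25 for Rps3, 0.47 for Rps9 and 0.18 for Rpsa. With the mean over clones they were -0.23 for Rplp1, -0.18 for Rps21 and -0.018 for Rps27l. With the authors' table Rps21 was at -0.022. Rps27l was at -0.0039 with 1 array per mouse, -0.13 with weights, -0.15 without the 7 mice, -0.037 without 1 h and -0.19 without 18 h, and between -0.15 and 0.10 without single mice. Without 24 h Rpl36 was at 0.25, Rpl6 at 0.0038 and Rps9 at 0.0028, and without 1.5 h Rps9 was at 0.10. The cause was not tested. OA minus serum at each time was not run with times left out or with only the compared groups.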
